A study of Homo sapiens with 4 samples.

Results

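Cadherins are calcium-dependent adhesion receptors, and catenins are the cytoplasmic proteins that join them to the cytoskeleton. The genes of both families were described in HT1080 cells, a human fibrosarcoma line, in which KDAC8 (the lysine deacetylase encoded by HDAC8) was knocked out. The rule for the set used gene names and no measured value, and took in every row named CDH, DSG, DSC or FAT with its number, the alpha, beta and delta catenins, JUP, DSP, PKP1 to PKP4 and CTNNBL1. It came to 47 genes of 60675 rows, all of them protein-coding. All 4 libraries carried the same genotype and had no further treatment named in the labels. Each library was prepared from total RNA depleted of ribosomal RNA. No unedited HT1080 library was analysed here, so the values are levels within the knockout cells and the spread between libraries, not effects of the knockout. Whether the 4 replicates came from separate cultures or from 1 clone is not stated in the labels, and tests between them may measure technical spread.

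Levels are given as CPM (counts per 1000000 counts of effective library size) for a gene across libraries. Where genes are set in tiers, ratios or shares, CPM per kilobase of annotated exon is given unless stated. The detection threshold, the medians and sums of lists, marker levels and levels along chromosomes use CPM not divided by length. Those values therefore depend on gene length. Errors are SD over the 4 libraries (n = 4). Total counts were 39454210 to 45828807 per library, and the 47 genes held 0.180% to 0.207% of them. HDAC8 itself had 80, 89, 95 and 107 counts in replicates 1 to 4, or 1.98 to 2.53 CPM. A total for the gene cannot tell intact from edited transcripts, so it does not check the label. A count of 0 in 1 library allows up to 0.0662 to 0.0742 CPM (3 counts), and 0 in all 4 allows up to 0.0176 CPM. These limits cover counting error only, since amplified reads are not independent molecules.

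Classical cadherins bind their like on the neighbouring cell. Their tails hold beta-catenin or plakoglobin, which recruits alpha-catenin and through it actin, while delta-catenins of the p120 family bind nearer the membrane and keep the cadherin at the surface. Desmosomes use a parallel set of parts: desmogleins and desmocollins outside, plakoglobin, plakophilins and desmoplakin inside, with keratin or vimentin filaments attached. Beta-catenin also carries WNT signals to the nucleus. Epithelial cells are known for E-cadherin (CDH1), and mesenchymal cells for N-cadherin (CDH2) and cadherin-11.

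Of the 47 genes, 20 reached 1 CPM in all 4 libraries (42.6%), against 58.8% of protein-coding rows and 21.4% of all rows. A further 27 stayed below 1 CPM in at least 1 library, 6 of them at 0 counts throughout (CDH1, CDH16, CDH19, CDH26, CTNND2 and DSG4). The 20 detected genes fell into tiers per kilobase of exon. CTNNB1, CTNNA1, FAT1, CDH13, CDH2, DSG2 and CTNND1 stood between 16.3 and 38.6 CPM per kilobase and above 78.7% or more of the detected protein-coding genes. CTNNBL1, PKP4 and CDH24 lay between 6.53 and 7.25 CPM per kilobase, close to the middle of detected coding genes. CDH4, PKP3, DSP, CDH11, PKP2 and FAT4 lay between 1.04 and 2.44, and CDH8, DSC2, FAT3 and CDH7 between 0.110 and 0.261 CPM per kilobase. The ranges over libraries of some neighbours in this order overlapped, as for FAT1 and CDH13, CDH13 and CDH2, CDH2 and DSG2, PKP4 and CDH24, and CDH11 and PKP2. Within each library, however, FAT1 exceeded CDH13, CDH13 exceeded CDH2 and CDH2 exceeded DSG2 in 4 of 4. Scaled by the longest annotated transcript in place of all exons, CTNNB1 and CTNNA1 still ranked 1 and 2, while CDH13 ranked 3 and FAT1 4, and CTNND1 6 and DSG2 7.

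**Figure D1:**
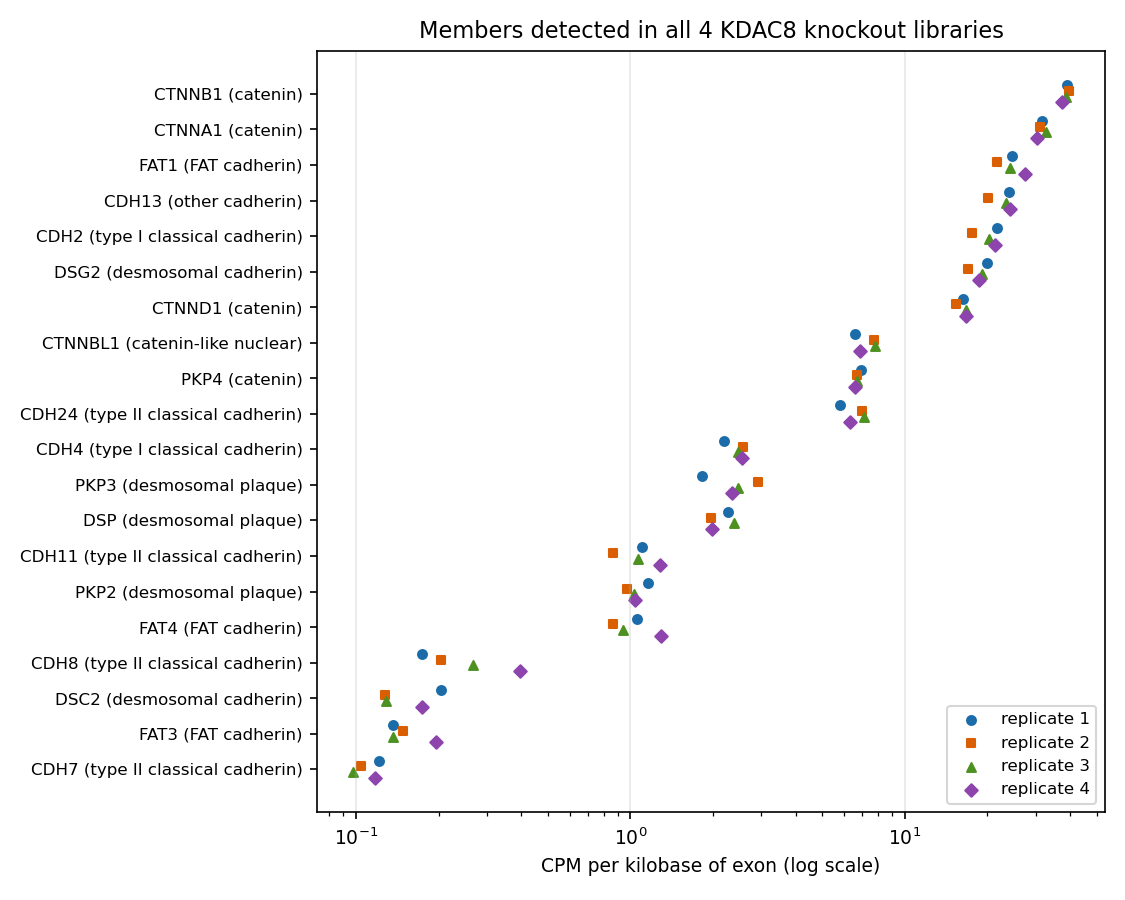
The x axis is CPM per kilobase of exon on a log scale, and each row is 1 of the 20 genes at 1 CPM or more in all 4 knockout libraries, with 1 point per library. CTNNB1 is at the top with 37.5 to 39.7 CPM per kilobase and CDH7 at the bottom with 0.0977 to 0.121, and the points of a gene lie close together beside the distance between the tiers.

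N-cadherin was the main classical cadherin transcript. CDH2 (ENSG00000170558, chromosome 18, 27950966 to 28177446, GRCh38, reverse strand) had 107.7, 87.3, 100.1 and 105.8 CPM in replicates 1 to 4, a mean of 100.2 ± 9.19 CPM. Replicate 2 was the lowest, and the other libraries lay between 100.1 and 107.7 CPM. Per kilobase CDH2 stood at 20.3 ± 1.86 CPM and made up 65.4% ± 3.16 of the signal summed over the type I and type II classical cadherins. R-cadherin, CDH4 (ENSG00000179242, chromosome 20, 61252426 to 61940617, forward strand), a close relative of N-cadherin known from retina and brain, had 16.2, 18.9, 18.1 and 18.7 CPM. Replicate 1 was the low one. CDH4 supplied 7.92% ± 0.817 of the classical signal, and CDH2 exceeded it 8.27-fold per kilobase, in 4 of 4 libraries.

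The other type I genes were at or near 0. E-cadherin, CDH1 (chromosome 16, 68737225 to 68835548, forward strand), had 0 counts in every library, and so did the antisense row that shares 347 exonic bases with it. P-cadherin, CDH3 (chromosome 16, 68636189 to 68722616), a cadherin of basal epithelium, had 1 count in replicate 2 only. In RNA of a whole culture, fewer cells of a type and less RNA per cell cannot be told apart. CDH15, the M-cadherin of muscle, had 13 counts over the 4 libraries, or 0.0762 ± 0.0397 CPM. Of the 11 listed epithelial markers, CDH1 among them, 2 were detected, against 58.8% of protein-coding rows. These were CLDN4 at 2.49 ± 0.438 CPM and OCLN at 3.29 ± 0.329 CPM, while EPCAM and KRT5 were at 0 in all libraries. The summed level of the epithelial list was 5.23 to 6.82 CPM per library. That list leaves out the keratins KRT8 and KRT18, given with the desmosome partners, which had 230 ± 21.5 and 159 ± 11.7 CPM.

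Type II classical cadherins were led by CDH24. CDH24 (ENSG00000139880, chromosome 14, 23047062 to 23057538, reverse strand) had 21.7, 26.1, 26.6 and 23.6 CPM, or 6.53 ± 0.600 CPM per kilobase. It supplied 21.2% ± 2.72 of the classical signal, more than any classical gene but CDH2. CDH11 (ENSG00000140937, chromosome 16, 64943753 to 65126112, reverse strand), the cadherin of osteoblasts and mesenchyme, had 14.7, 11.6, 14.3 and 17.2 CPM. Replicate 4 was highest and replicate 2 lowest, and per kilobase the mean of 1.08 ± 0.170 CPM was below that of CDH24 in every library. CDH11 gave 3.47% ± 0.387 of the classical signal.

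CDH8 (ENSG00000150394, chromosome 16, 61647242 to 62037035, reverse strand), mostly known from brain, had the widest spread of all detected members. It had 95, 117, 164 and 226 counts, which gave 2.36, 2.77, 3.62 and 5.35 CPM, a 2.27-fold range with an SD of 0.51 on the log2 scale. The exact Poisson 95% intervals of its lowest and highest library, 76.9 to 116 and 198 to 258 counts, did not meet. The only row that shares exonic bases with CDH8, an antisense RNA over 79 bases, had 0 counts in all libraries. CDH7 had 1.76, 1.52, 1.42 and 1.70 CPM, with no library apart. CDH10, the highest member by CPM below the threshold, had 0.356 to 0.618 CPM. Per kilobase its mean, 0.140 CPM, was above the 0.110 CPM of CDH7, whose exons are longer (14532 against 3660 bases). The remaining 8 type II genes, CDH5, CDH6, CDH9, CDH12, CDH18, CDH19, CDH20 and CDH22, had mean levels of 0 to 0.142 CPM. CDH5, the VE-cadherin of endothelium, had 4 counts in all. Of the 7 endothelial markers only the receptor TIE1 was detected, against 58.8% of protein-coding rows. TIE1 had 108 ± 5.25 CPM and PECAM1 0.0297 ± 0.0234 CPM.

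The highest CDH gene was CDH13, which encodes T-cadherin, a member that is held in the membrane by a lipid anchor and has no catenin-binding tail. CDH13 (ENSG00000140945, chromosome 16, 82626803 to 83800640, forward strand) had 267, 226, 262 and 270 CPM in replicates 1 to 4, a mean of 256 ± 20.7 CPM. Replicate 2 stood below a tight group of the other libraries. Per kilobase CDH13 had 22.9 ± 1.85 CPM, 1.13-fold above CDH2, and supplied 42.5% ± 0.775 of the signal over all CDH genes, with CDH2 at 37.6% ± 1.38. Without division by length CDH13 stood 2.56-fold above CDH2 and its share was 61.0%, and by the longest transcript the share was 47.1%. CDH16 of kidney and CDH26 were at 0 in all libraries, CDH17 of intestine had 1 count, and CDH23, a cadherin of hair-cell tip links, had 0.0988 ± 0.0454 CPM.

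All junction catenins of the main ubiquitous forms were abundant. Beta-catenin, CTNNB1 (ENSG00000168036, chromosome 3, 41194741 to 41260096, forward strand), had 463, 473, 460 and 448 CPM, which is 38.6 ± 0.876 CPM per kilobase and above 92.7% of detected protein-coding genes. Alpha-catenin, CTNNA1 (ENSG00000044115, chromosome 5, 138610967 to 138935034, forward strand), had 279, 274, 288 and 267 CPM, or 31.4 ± 1.02 CPM per kilobase. These 2 genes were among the steadiest, with SDs of 0.03 and 0.05 on the log2 scale. The p120 gene CTNND1 (ENSG00000198561, chromosome 11, 57753243 to 57819546, forward strand) had 143, 136, 147 and 147 CPM, or 16.3 ± 0.605 CPM per kilobase. The log2 ratio to CTNNB1 per kilobase was -0.30 ± 0.05 for CTNNA1, -1.25 ± 0.08 for CTNND1 and -0.94 ± 0.16 for CDH2, and CTNNB1 was the higher gene in all 4 libraries each time. No test was made of such ratios. PKP4, a p120 relative found at both kinds of junction, had 65.8, 64.0, 63.7 and 62.7 CPM, or 6.72 ± 0.138 CPM per kilobase, and CTNND1 exceeded it 2.42-fold. Rows that share exonic bases with catenin genes were low beside them: LRRTM2, opposite CTNNA1, had 67 to 110 counts per library and PKP4-AS1 19.7 to 36.2.

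The plakoglobin transcript was nearly missing. JUP (ENSG00000173801, chromosome 17, 41754604 to 41786931, reverse strand), the paralog of beta-catenin that serves both junction types, had 19, 14, 20 and 18 counts, or 0.470, 0.332, 0.442 and 0.426 CPM. All 4 libraries lay below the detection threshold and close to each other. The exact Poisson 95% interval of the lowest library was 7.65 to 23.5 counts. CTNNB1 exceeded JUP 461-fold per kilobase, a log2 ratio of 8.85 ± 0.24. Of the tissue-restricted paralogs, CTNNA2 of neurons had 1 count in all, CTNNA3 of heart 19 counts and CTNND2 of neurons 0. CTNNBL1, named for its likeness to beta-catenin but known as a nuclear protein tied to the spliceosome, had 27.2, 32.2, 32.3 and 28.6 CPM, with replicates 2 and 3 above the others.

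Genes whose proteins share the adherens junction were expressed broadly. Of 15 listed partners, 14 were detected, against 58.8% of protein-coding rows, and the list's median was 87.6 CPM. The actin crosslinkers ACTN4 and ACTN1 and the alpha-catenin binder VCL were highest per kilobase, at 218, 63.2 and 46.4 CPM. EPB41L5 was the most variable at 1.77 ± 0.428 CPM, and PLEKHA7, a p120 binder of epithelial junctions, was the 1 gene not detected, at 0.959 ± 0.234 CPM. The nectins, a second receptor family of this junction, and their adaptor AFDN were picked after their values were seen. NECTIN2 and NECTIN3 had 23.4 and 12.4 CPM per kilobase and AFDN 11.0. Of the 15 partners 13 varied between libraries beyond counting noise, by the chi-square test described with the spread between libraries, against 59.2% of all genes tested. Of the 14 partners that averaged at least 50 counts 13 varied, against 68.5% of genes so deep. Without replicate 2, 7 of the 15 varied, against 48.8% of all genes tested.

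Desmosomal genes were uneven, with 1 cadherin high and the other desmosomal cadherins at low levels or below the detection threshold. DSG2 (ENSG00000046604, chromosome 18, 31498043 to 31549008, forward strand), the desmoglein of simple epithelia and heart muscle, had 124, 106, 118 and 115 CPM, or 18.7 ± 1.21 CPM per kilobase, near the level of CDH2. Replicate 2 was the lowest. Its antisense row DSG2-AS1 had 4 to 12 counts per library. DSC2 (ENSG00000134755, chromosome 18, 31058840 to 31102522, reverse strand), its usual desmocollin partner, had 2.55, 1.59, 1.61 and 2.18 CPM, with replicates 1 and 4 above the other libraries. DSG2 exceeded DSC2 120-fold per kilobase (59.4-fold without division by length) and made up 98.9% ± 0.173 of the signal of the desmosomal cadherins. DSC3 had 0.292 ± 0.0656 CPM. The remaining 4, DSC1, DSG1, DSG3 and DSG4, which are known from stratified epithelium and hair, had 0 to 4 counts over all libraries.

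Of the desmosomal plaque genes, DSP, PKP3 and PKP2 transcripts were detected, each below DSG2 per kilobase. Desmoplakin, DSP (ENSG00000096696, chromosome 6, 7541575 to 7586717, forward strand), the link to intermediate filaments, had 22.8, 19.8, 24.1 and 20.1 CPM, or 2.15 ± 0.207 CPM per kilobase. PKP3 (chromosome 11, 392614 to 404908, forward strand) had 6.90, 11.0, 9.36 and 8.87 CPM, a 1.60-fold range with replicate 1 lowest and replicate 2 highest. PKP2 (chromosome 12, 32790745 to 32896840, reverse strand), the plakophilin of simple epithelia and heart, had 8.19, 6.84, 7.24 and 7.33 CPM. PKP1 of stratified epithelium had 1 count. The companion list of desmosome partners had 5 of 9 genes detected, near the 58.8% of protein-coding rows. Highest per kilobase were PLEC, KRT18 and PERP at 88.5, 49.5 and 35.0 CPM. KRT8, the keratin partner of KRT18 and picked after its value was seen, had 33.4 CPM per kilobase. DST was the most variable of them, at 620 ± 65.5 CPM. EVPL, KRT5 and KRT14 of stratified epithelium were at 0 to 0.0225 CPM and PPL at 0.777 ± 0.202 CPM. Of the 6 partners tested, 5 varied between libraries, against 59.2% of all genes tested. All 5 that averaged at least 50 counts varied, against 68.5% of genes so deep.

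**Figure D2:**
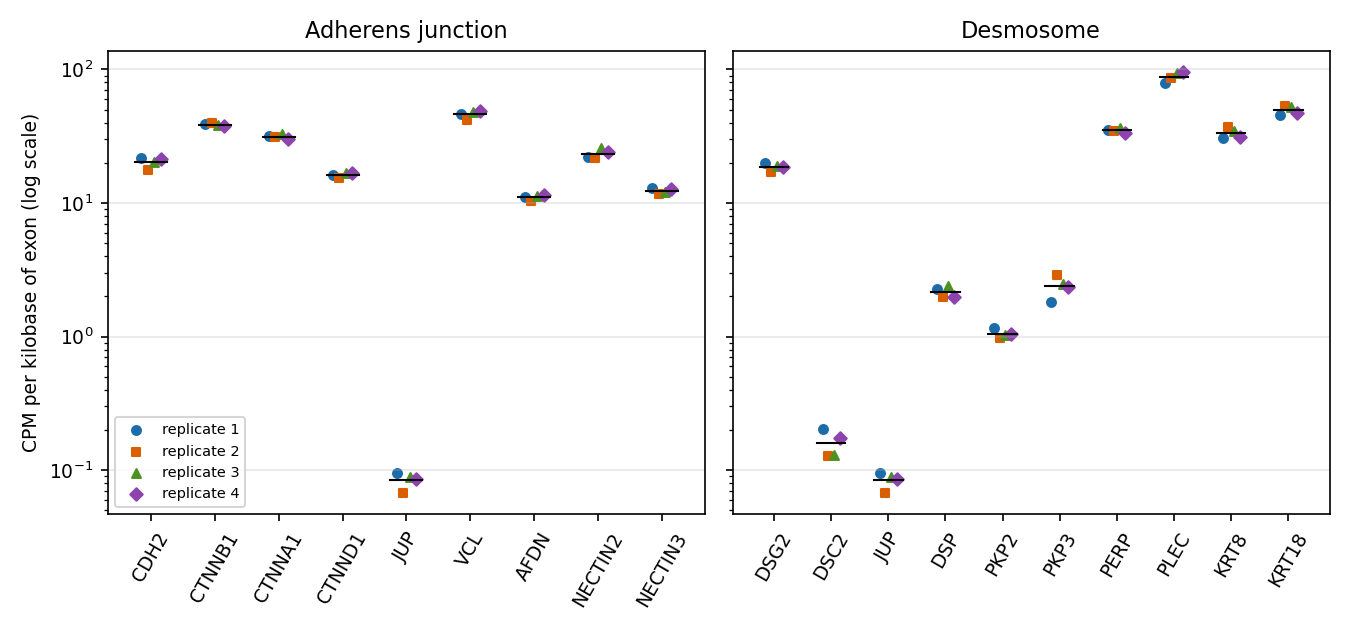
The y axis is CPM per kilobase of exon on a log scale, with 1 point per knockout library and a bar at the mean, for genes of the adherens junction (left) and the desmosome (right). JUP, which serves both, lies at 0.0673 to 0.0951 CPM per kilobase, below each other gene shown, and DSC2 is next at 0.127 to 0.204.

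The promoter windows of 3 desmogleins of the chromosome 18 cluster are shown because only DSG2 reached 1 CPM, so the choice rests on measured levels. DSG4, the other desmoglein there, with 0 counts, had no window in the RefSeq table. The windows run from 250 bases before to 50 bases after the RefSeq start (build GRCh38.p14, forward strand). They lie at chr18:31317910-31318209 for DSG1, chr18:31447491-31447790 for DSG3 and chr18:31497927-31498226 for DSG2. Capitals mark each CG dinucleotide, which reads the same on both strands and is the site of DNA methylation in human cells.
DSG1: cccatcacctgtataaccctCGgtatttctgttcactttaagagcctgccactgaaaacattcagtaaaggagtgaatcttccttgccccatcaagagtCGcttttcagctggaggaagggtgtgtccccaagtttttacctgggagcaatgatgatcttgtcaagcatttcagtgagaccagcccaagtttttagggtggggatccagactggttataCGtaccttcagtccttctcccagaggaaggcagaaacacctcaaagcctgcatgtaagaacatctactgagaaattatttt
DSG3: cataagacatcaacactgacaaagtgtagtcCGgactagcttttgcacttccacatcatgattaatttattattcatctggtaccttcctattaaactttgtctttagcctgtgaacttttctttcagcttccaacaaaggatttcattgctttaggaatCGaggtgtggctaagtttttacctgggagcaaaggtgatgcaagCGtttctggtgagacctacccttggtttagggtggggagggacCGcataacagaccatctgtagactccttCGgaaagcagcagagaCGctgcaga
DSG2: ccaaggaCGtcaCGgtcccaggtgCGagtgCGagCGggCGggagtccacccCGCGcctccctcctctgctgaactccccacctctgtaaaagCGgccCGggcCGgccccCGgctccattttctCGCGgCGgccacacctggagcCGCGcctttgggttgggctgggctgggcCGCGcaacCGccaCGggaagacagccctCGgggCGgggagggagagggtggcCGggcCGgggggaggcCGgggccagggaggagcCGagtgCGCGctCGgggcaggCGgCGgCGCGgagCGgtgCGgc
The DSG1 window held 3 CG dinucleotides, the DSG3 window 6 and the DSG2 window 36. At least as many as in DSG2 stood in the richest window of 20.7% of 15843 protein-coding genes, against 91.7% for the count of DSG1 and 83.2% for that of DSG3. No methylation was measured.

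Over the members with a window in the RefSeq table, 30 of 47, CG counts of detected and undetected members overlapped. In the richest window of each gene, the 12 detected members had a median of 33.5 CG dinucleotides (14 to 44), and the 18 members below the threshold a median of 12.5 (2 to 43). The median of all protein-coding genes was 24. Of the 18 low members, 7 reached the lowest count among detected ones, the 14 of CDH4. Both CDH4 windows lie inside its annotated span (61252426 to 61940617), starting at 61499171 and 61599511. Other windows were also away from the annotated start, as in CTNNA1 (138753572, span from 138610967) and CTNNB1 (41199255, span from 41194741). Among low members, the FAT2 window lay outside its span, from 151591282 where the span ends at 151568944. The next lowest detected member was DSC2 with 22. JUP, with 23 in its richer window, and CTNNA2 and CDH23, with 43 each, were among these 7. These counts are a description, and a link between them and expression was not tested.

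**Figure D3:**
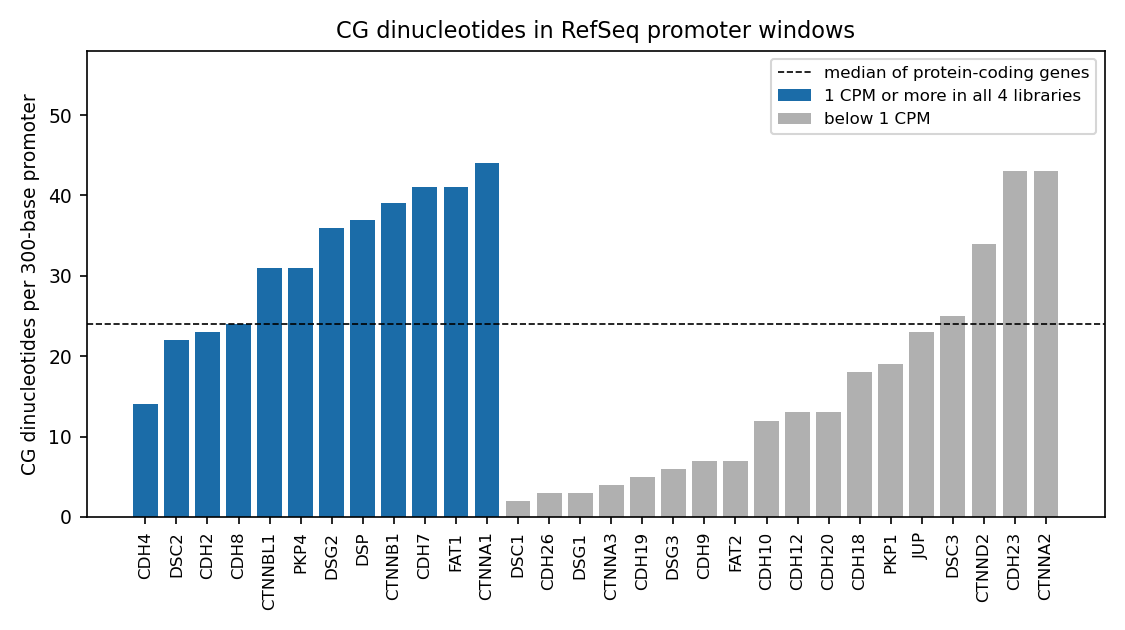
Bars give the number of CG dinucleotides in the richest 300-base RefSeq promoter window of each member, with the 12 detected members on the left, the 18 below 1 CPM on the right, and a dashed line at 24, the median of protein-coding genes. Detected members range over 14 to 44 and the others over 2 to 43, so the groups overlap.

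The giant FAT cadherins, relatives of a Drosophila growth regulator, were dominated by FAT1. FAT1 (ENSG00000083857, chromosome 4, 186587783 to 186726722, reverse strand), which is known to act on actin at the cell edge, had 399, 351, 390 and 443 CPM, or 24.5 ± 2.32 CPM per kilobase. Replicate 4 was highest and replicate 2 lowest. FAT4 (ENSG00000196159, chromosome 4, 125316399 to 125492932, forward strand), the member closest to Drosophila Fat, had 17.3, 14.2, 15.4 and 21.3 CPM with the same extremes. FAT1 made up 95.3% ± 0.406 of the FAT signal and exceeded FAT4 23.8-fold per kilobase, a log2 ratio of 4.57 ± 0.13. FAT3 had 2.62, 2.85, 2.63 and 3.78 CPM, with replicate 4 above a close group of the other libraries. FAT2 stayed at 0.380 to 0.662 CPM. DCHS1 and DCHS2, which encode the ligands of FAT4, were picked after their values were seen and had 0.580 ± 0.0391 and 0.126 ± 0.0844 CPM.

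Of 25 cadherin relatives outside the set, 10 were detected, against 58.8% of protein-coding rows. The median over the list was 0.537 CPM. CLSTN1, a cargo adaptor of vesicles, led with 36.5 CPM per kilobase, followed by the planar polarity cadherin CELSR1 (9.17) and FJX1 (8.41), the homolog of a Drosophila kinase that modifies Fat. PCDH9 was the most variable detected gene of that list at 2.19 ± 0.555 CPM. Of 16 tested, 8 varied between libraries, where 59.2% of all genes tested did. Of the 10 that averaged at least 50 counts 8 varied, beside 68.5% of genes so deep. Without replicate 2, 4 of 16 varied, beside 48.8% of all genes, and without replicate 4, 5 of 15 varied, beside 46.8% of all genes.

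Some neighbouring cadherin genes differed sharply in level, as DSG3 and DSG2 did, while others were alike. Chromosome 18 carries 11 members, of which 4 were detected. CDH2 lies at one end, and the block of desmocollins and desmogleins reads DSC3, DSC2, DSC1, DSG1, DSG4, DSG3 and DSG2 along the chromosome. Mean levels along that block were 0.292, 1.98, 0.0110, 0.00618, 0, 0.0240 and 116 CPM. Chromosome 16 carries 8 members, 3 of them detected. CDH1 and CDH3 are adjacent there, at 0 and 0.00594 CPM. CDH13, at 256 CPM, is the next member along but lies far off, starting at 82626803 where CDH1 ends at 68835548. Of the 8 members on chromosome 5, the run of CDH18, CDH12, CDH10, CDH9 and CDH6 stayed below 1 CPM in each library, and CTNNA1 was the 1 member detected.

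**Figure D4:**
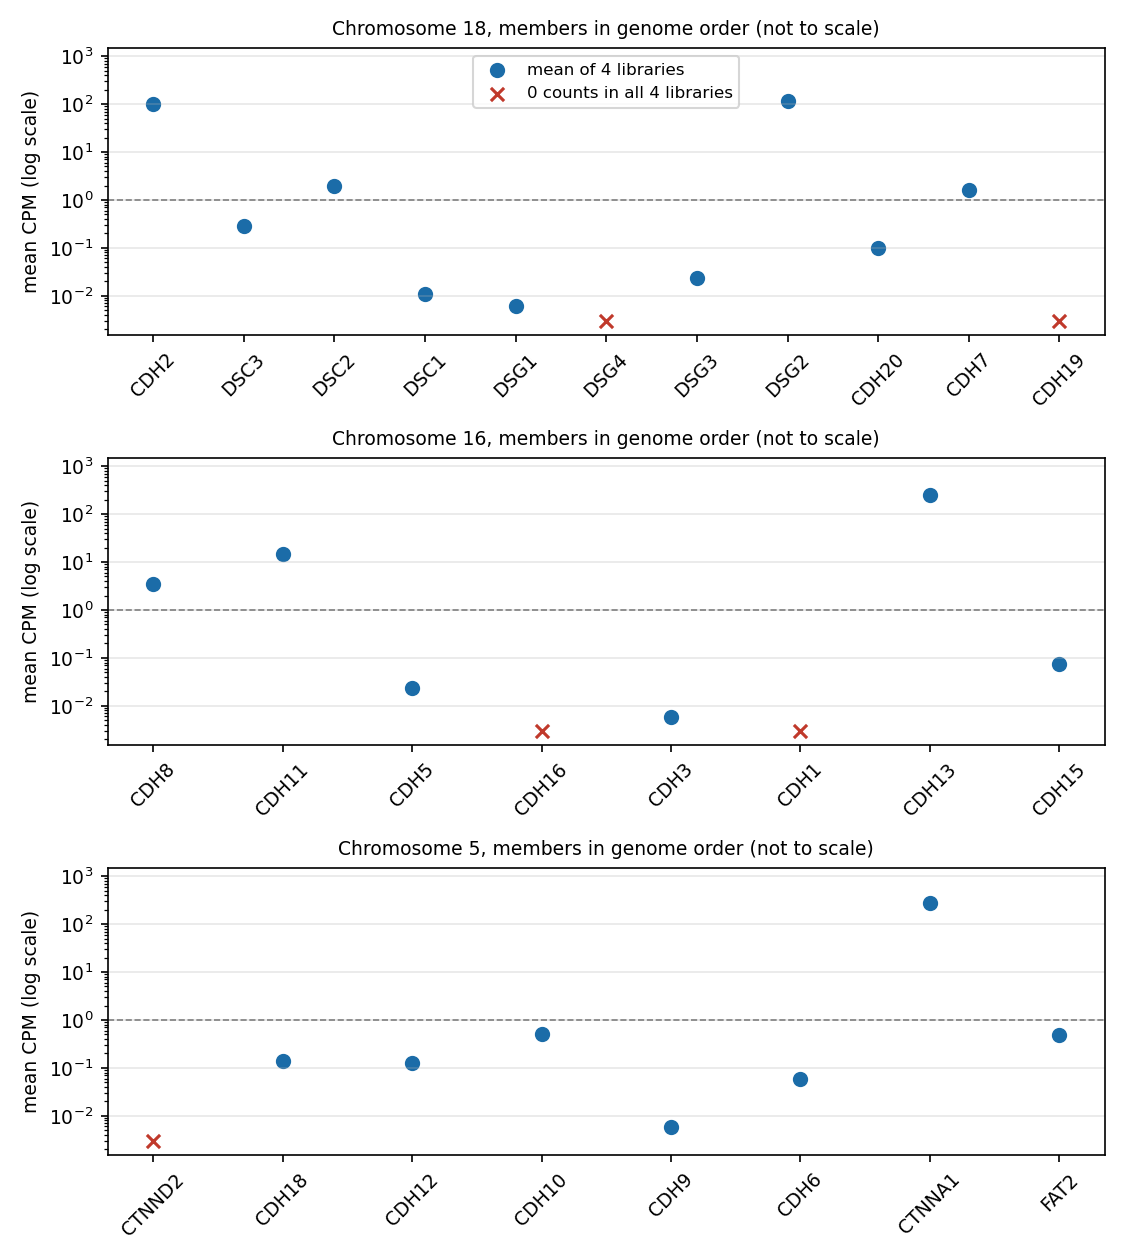
The y axis is mean CPM over the 4 knockout libraries on a log scale, and members run left to right in genome order on chromosomes 18, 16 and 5, evenly spaced and not to scale. Crosses mark genes with 0 counts in all libraries and are set at the bottom, and the dashed line is 1 CPM; DSG2 (116 CPM) stands beside DSG3 (0.0240), and CDH13 (256) beyond CDH1 (0).

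Known repressors of the CDH1 promoter were all present, where 58.8% of protein-coding rows were detected. All 8 listed genes were detected: TCF3 (98.1 ± 3.26 CPM, 16.1 per kilobase), ZEB1 (89.0 ± 3.53, 10.3 per kilobase), ZEB2 (65.3 ± 2.66, 2.61 per kilobase), SNAI2 (49.8 ± 4.34, 14.7 per kilobase), TWIST2 (19.6 ± 1.63, 10.4 per kilobase), TCF4 (19.4 ± 0.911, 0.697 per kilobase), TWIST1 (9.72 ± 0.809, 4.78 per kilobase) and SNAI1 (3.19 ± 0.142, 1.89 per kilobase). SNAI2 had the largest SD, 0.13 on the log2 scale. Of the 8, 5 varied between libraries, against 59.2% of all genes tested. All 8 averaged at least 50 counts, and 68.5% of genes so deep varied. Without replicate 2, 3 of the 8 varied, where 48.8% of all genes did. Whether any of them acts on CDH1 in these cells was not tested. All 9 genes of cadherin processing were detected as well, against 58.8% of protein-coding rows. The gamma-secretase parts APH1A and NCSTN and the proprotein convertase FURIN, which trims cadherin precursors, were highest per kilobase at 30.6, 22.8 and 24.8 CPM, and PSENEN was the most variable at 17.4 ± 1.92 CPM. In that list 7 of 9 varied, against 59.2% of all genes tested. All 9 averaged at least 50 counts, and 68.5% of genes so deep varied.

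Markers of the labelled cell type were mostly present. Of the 8 mesenchymal markers 6 were detected, among them VIM at 4701 ± 283 CPM, while the fibroblast markers THY1 and FAP were at 0.178 ± 0.119 and 0.00618 ± 0.0124 CPM. Muscle markers, which include CDH15, had 1 of 5 detected (MYH3, 2.46 ± 0.293 CPM), with MYOD1 and MYOG at 0. Neural markers had 3 of 5 detected, led by TUBB3 at 127 ± 15.7 CPM. Beside these marker counts, 58.8% of protein-coding rows were detected, a share near that of the neural markers.

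Differences between the libraries were tested against counting noise, with a chi-square test of homogeneity over all genes that averaged at least 10 counts and Benjamini-Hochberg adjustment at 0.05. Of the 24 members tested, 17 varied (70.8%), against 59.2% of all 16790 genes tested and 64.4% of protein-coding genes tested. The test gains power with depth, and of the 20 members that averaged at least 50 counts 17 varied, where 68.5% of genes so deep did. The 7 that did not pass were PKP4, PKP2, CDH7, CDH10, JUP, FAT2 and DSC3. Of the 17, 3 members, CDH8, PKP3 and DSC2, had a range of 1.5-fold or more, as did 2065 of the 9944 varying genes, so the share among members was near that over all genes. Over the 14 members at 10 CPM or more the median SD of log2 CPM was 0.12, against 0.09 over all 9480 such genes.

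The smallest adjusted p-values of the chi-square test (Benjamini-Hochberg) were those of deeply counted genes, FAT1 (p = 1.17e-95, 1.26-fold range), CDH13 (p = 5.78e-44) and CDH2 (p = 1.30e-21, 1.23-fold). In the same chi-square test the adjusted p was 1.61e-12 for CDH8, 1.77e-14 for FAT4 and 4.10e-09 for CDH11 (1.48-fold range). Some calls rested on 1 library in this chi-square test. Without replicate 2 the adjusted p was 0.493 for CDH13, 0.322 for CTNND1 and 0.0691 for CDH4. Without replicate 1 it was 0.756 for CDH4 and 0.123 for DSC2, and without replicate 4 it was 0.822 for FAT3. The call of CDH2, whose lowest library was replicate 2, held without that replicate (adjusted p = 0.00719, chi-square test).

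Replicate 2 was the lowest library for 9 of the 17 varying members, CDH2, CDH11, CDH13, DSG2, DSC2, DSP, CTNND1, FAT1 and FAT4, whereas it was lowest for 28.5% of all varying genes. For DSC2 and DSP the next library was close, at 1.59 against 1.61 CPM in replicate 3 and 19.8 against 20.1 CPM in replicate 4. Replicate 2 was highest for 3 members (CTNNB1, CDH4 and PKP3) and for 35.3% of all varying genes. Replicate 4 was highest for 6 members, the 3 detected FAT genes, CDH8, CDH11 and CDH13, and for 26.6% of all varying genes. Replicate 2 also had the largest share of short structural RNAs (RN7SL1, RN7SL2, RN7SK, RPPH1 and RMRP), 8.18% of its counts, against 5.41% to 6.82% in the other libraries, and the smallest mitochondrial share, 1.99% against 2.58% to 3.28%. The part of this composition in the members' differences was not tested. The number of varying members was the same, 17, when library sizes were taken from protein-coding genes only, an alternative chosen after the data were seen. Adjusted p-values of the chi-square test moved both ways, for CTNNB1 from 5.34e-06 to 0.00566 and for CTNND1 from 4.31e-05 to 2.44e-07. The unchanged count is no test of the composition.

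**Figure D5:**
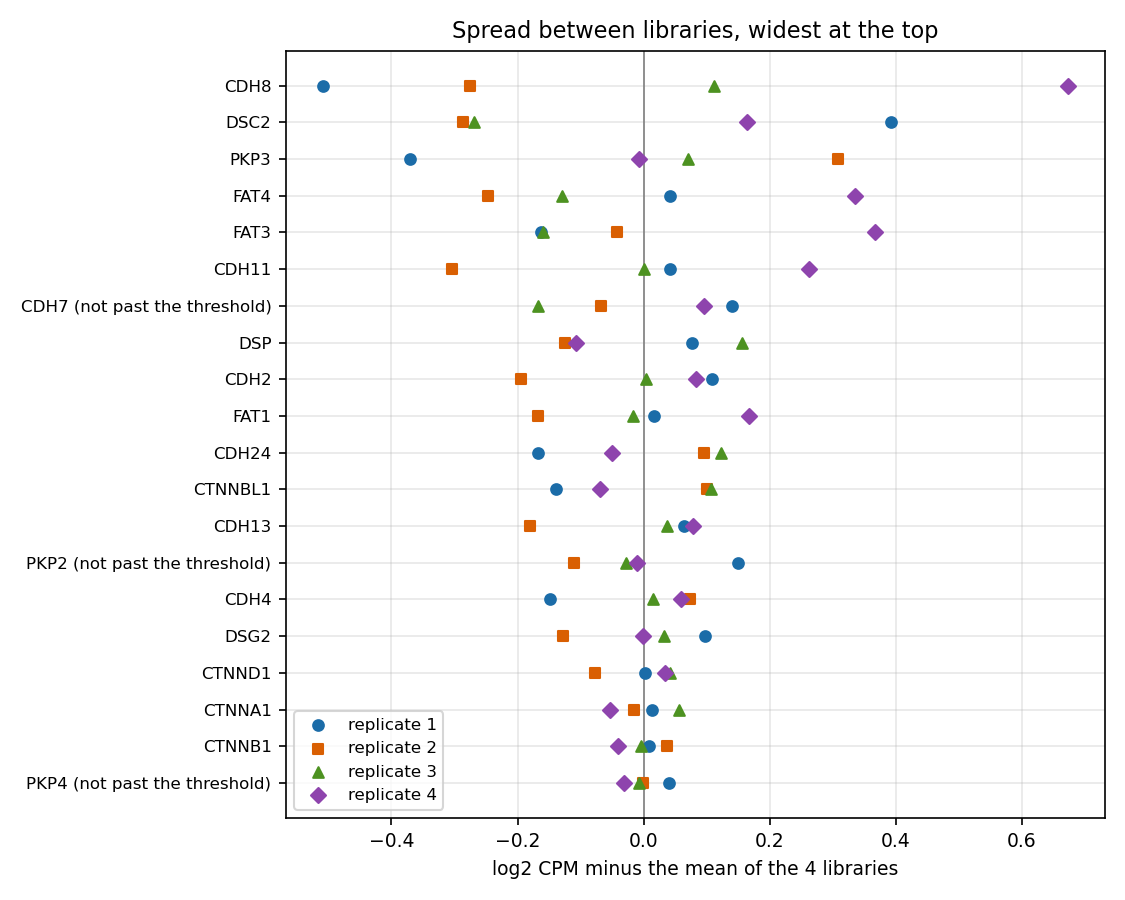
The x axis is log2 CPM minus the mean of the 4 knockout libraries for each of the 20 detected members, 1 point per library, with the widest SD at the top. CDH8 (SD 0.51) spreads most and PKP4 (SD 0.03) least. The orange squares of replicate 2 lie at the low end for 9 of the 17 members past the threshold, narrowly so for DSC2 and DSP.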

How the data were processed

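RNA of 4 HT1080 KDAC8 knockout libraries was analysed. The authors deposited expected counts per Ensembl gene, 1 column per library, not scaled between libraries. The unit follows from the RSEM note and from the values, of which 10.6% to 11.9% per library were not whole. Per the submitters' processing notes, Trimmomatic 0.39, Bowtie2 2.5.4, RSEM 1.3.3, DESeq2 1.46.0 and GRCh38 were used. The role of each tool, the annotation and the strand setting were not given in the sources used here. An expected count can split reads between similar sequences, and without a stated strand setting overlapping antisense genes cannot be told apart. All 4 columns matched a sample by name, and 0 were left unused.

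CPM used TMM effective library sizes (edgeR 4.0.16, factors 0.963 to 1.03). Counts were rounded for the chi-square test (scipy 1.17.1). The log2 scale used a pseudocount of 0.01 CPM for SDs and none for ratios. Positions, exonic lengths and gene types came from GENCODE release 29 (GRCh38), which held 94.03% of the IDs, and promoters from RefSeq (GRCh38.p14). Exonic length joins all annotated exons. Symbols PVRL1 to PVRL4 and MLLT4 in the deposited table are given as NECTIN1 to NECTIN4 and AFDN.

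The rule for the members uses gene names only, but it, the lists and the tests were proposed with earlier results of these data known. The rule for named genes took every member at 1 CPM or more in all 4 libraries, the highest and the 0-count members below it, and in each list the 3 highest per kilobase and the most variable detected gene, with all CDH1 repressors. Other genes named outside this rule, low members such as CDH3, CDH5, CDH15, CDH17, CDH23, CTNNA2, CTNNA3, DSC3 and FAT2 and undetected genes of the lists, were chosen after their values were seen, while JUP belongs to a ratio fixed in the design. The chi-square test was tested on simulated data. Total counts per library were 39454210 to 45828807. Alternatives were DESeq2 1.42.0 size factors, raw totals, other thresholds, a larger variance, other lengths and leaving out each replicate.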

Additional observations from a re-analysis of the deposited data

Results flagged for a closer look

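CDH13 stood at 225.5 CPM in replicate 2, apart from 262 to 270 CPM in the other libraries. The gap to the nearest library was 0.83 of the whole range, just past the critical value of Dixon's test for 4 samples. It was the 1 item so marked of 26 examined (20 detected members, 5 ratios and 1 share), and chance marks about 1 in 20.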

How the results depend on the processing

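Lengths moved most values. At 1 CPM per kilobase of exon, 13 members were detected in place of 20. The share of all genes past that threshold was not computed. Without division by length, the CDH2 share of CDH signal was 23.9%, and the log2 ratios were 10.12 for CTNNB1 over JUP, -0.73 for CTNNA1 over CTNNB1, -1.69 for CTNND1 over CTNNB1 and -2.21 for CDH2 over CTNNB1. With the longest transcript as length they were 34.2%, 9.64, -0.38, -2.11 and -2.03. No sign changed in these ratios, nor in FAT1 over FAT4. Leaving out 1 replicate gave 14 to 17 varying members, beside 46.8% to 55.9% of all genes tested (7786 to 9376 genes). The number of detected members was 20 each time. A variance of 1.5 times the mean gave 14 varying members (beside 45.3% of all genes tested), raw totals 18 (beside 60.2%) and DESeq2 size factors 16 (beside 59.4%). Of 236 comparisons of a single member's call with an alternative, 223 were on the same side, and 17 of 24 members kept their side in each. Raw totals brought PKP2 (adjusted p = 0.0387) and PKP4 (0.0148) past the threshold in the chi-square test, and ended the call of CDH4 (0.0848), as did DESeq2 size factors (0.052). Mean levels shifted by at most 0.507% with the scaling. No paired analysis was possible because the labels give 1 group. At under 10 counts per library, a difference between libraries was not tested for 23 members.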
